A study of Apis mellifera with 4 samples.

Results

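The unnamed short spliced genes of the honeybee (Apis mellifera) are genes known only by an automatic LOC identifier, with 2 or 3 exons that add up to at most 700 bases. They were taken from the table of all genes at 60 hours of larval development by this rule and by a minimum of 10 exon reads summed over the samples, and 340 of the 11156 genes in the table met it. Of the 8586 LOC genes, 761 had 2 or 3 exons and at most 700 bases of exon, of which 421 had under 10 reads and 152 had 0 reads. Expression was measured by high throughput sequencing (HTS) of RNA of queen larvae (2 samples) and worker larvae (2 samples). Queen larvae had been grafted into queen cells soon after hatching and kept in a hive without a queen, and worker larvae had stayed in their own cells and been reared in another hive. All 4 samples were whole larvae of 60 hours, pooled before RNA extraction, so that the hive and the rearing cell differ together with the caste. The larvae came from single-drone inseminated queens of a closed population.

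A LOC identifier is given by NCBI's annotation to a predicted gene that has no agreed symbol. Short spliced genes of insects are known to include genes for small secreted proteins and peptides, for ribosomal and respiratory chain subunits and for other small proteins, as well as long non-coding RNAs and fragments of longer genes at the ends of scaffolds. Queens and workers share the same genome, and a female larva becomes one or the other through the food it receives, with royal jelly leading to the queen. No product is given for most of these genes, so that the members are described here by their structure, their reads and their later annotation, and a role is named only for the few that the study annotated by similarity.

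The exons of all genes received 5219511 and 4949093 reads in queens and 5476218 and 5243286 in workers. Of these reads the 10 most abundant genes took 6.88% and 7.02% in queens, against 24.9% and 23.4% in workers, and the libraries were therefore scaled by edgeR's TMM factors, which were 1.21 and 1.20 for queens and 0.828 and 0.830 for workers. With library totals alone the median log2 change of all tested genes moved from 0.01 to 0.55, so that every change given here is relative to a centre that depends on this choice. Differences between the castes are given as the log2 fold change of queens over workers, named the log2 change here, with its standard error (SE). The 4 fat body markers, among them the storage protein genes Hex70a, HEX70b and Hex110, were higher in both worker samples than in both queen samples, with a summed RPKM of 8343 and 9176 in queens and of 74380 and 67719 in workers. Of the 3 muscle markers found 2 were higher in both worker samples, with sums of 267 and 247 RPKM in queens and of 473 and 479 in workers. Of the 4 silk gland markers found 2 were higher in both queen samples, with sums of 14.9 and 9.18 in queens and of 4.39 and 4.02 in workers, and Fibroin3 made up most of the sum in queens. The marker values are RPKM without the TMM factors. For Fibroin1, with 0.677 in queen sample 2 and 0.632 in worker sample 1, the TMM factors would turn this order. Of 4 nervous system markers 2 were found, with sums between 5.62 and 7.33 over the samples, and the 3 adult hypopharyngeal gland markers summed to between 1.45 and 6.50. No marker found was at 0 in every sample, and the part of tissue composition in the results was not tested. In whole larvae fewer cells of a type and less RNA per cell cannot be told apart.

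The members had between 182 and 700 bases of exon, with a median of 521, and 171 had 2 exons and 169 had 3. Only 2 of them had more than 1 annotated transcript. Reads that cross a join of exons made up a median of 14.0% of the exon reads of a member, against 6.25% for the 934 LOC genes of 2 or 3 exons and over 700 bases. The rule itself favours such a contrast, because a join takes up a larger part of a shorter exon total. The median exon length was 521 bases in the members and 1345.5 in these longer genes. Summed over all members, a mean of 24.2% of the exon reads in queens and of 25.6% of those in workers crossed a join, and for the longer genes of 2 or 3 exons these shares were 7.56% in queens and 6.56% in workers. Without LOC724386, the member with the most reads, the members' shares were 22.2% in queens and 20.2% in workers, so that the order of the castes turned. No read crossed a join in 67 of the 340 members (19.7%), against 115 of the 934 longer genes (12.3%). Within classes of like depth these shares lay closer together, at 30.3% and 28.6% from 10 to under 100 reads, 8.26% and 7.11% from 100 to under 1000 reads and 2.94% and 4.19% from 1000 reads on.

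Many members had reads that were not counted as matching a single place. The median share of a member's reads that matched a single place was 86.8%, against 98.6% for the longer genes of 2 or 3 exons and 99.9% for all 5752 longer LOC genes. For 95 members (27.9%) fewer than 50% of the reads matched a single place. Their reads could have been split between copies or between overlapping genes, so that the levels of these members are uncertain. In LOC100576416, which overlaps Ndufa9, 62.0% of the reads matched a single place and 62.0% crossed a join. On Amel_4.5 scaffolds 44 members (12.9%) were the only gene of the table on their scaffold, against 45 of the longer genes of 2 or 3 exons (4.82%), and 106 members overlapped another gene. The counting is not stated to have used the strand, so that reads of overlapping genes cannot be told apart.

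The later RefSeq annotation of Amel_HAv3.1 held an entry with the same identifier for 157 of the 340 members (46.2%). Of these, 145 were protein-coding genes and 12 were long non-coding RNAs. Among the longer genes of 2 or 3 exons 77.3% had an entry, and among all longer LOC genes 91.0%. The 157 members with an entry had a median level of 14.5 RPKM and a median of 202 reads, and the 183 members without one had 4.49 RPKM and 54 reads. In the longer genes the same order was seen, and the median was 10.9 RPKM for the 722 of 2 or 3 exons with an entry and 3.89 RPKM for the 212 without one.

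Per length of exon the members had a lower median level than longer LOC genes, with wide overlap between the sets. Their mean RPKM over the 4 samples had a median of 7.36 with quartiles of 2.26 and 24.6, against 8.77 (2.56 and 22.5) for the longer genes of 2 or 3 exons and 11.3 (4.04 and 27.6) for all longer LOC genes. The minimum of 10 reads stands for a higher RPKM in a short gene, and 15 members (4.41%) were below 1 RPKM, against 113 of the longer genes of 2 or 3 exons (12.1%). At the upper end 27 members (7.94%) reached 100 RPKM, against 58 longer genes of 2 or 3 exons (6.21%) and 326 of all longer LOC genes (5.67%). In reads the distance was larger, with a median of 87 per member, 303 per longer gene of 2 or 3 exons and 602.5 per longer LOC gene of any exon number. The limit on length itself favours this distance, because a shorter gene takes fewer reads at the same RPKM. The members' median RPKM was 8.06 and 7.34 in queens, against 5.75 and 6.17 in workers, and the longer genes of 2 or 3 exons had 9.77 and 9.42 in queens and 6.88 and 6.66 in workers. On the scale of the TMM factors the members' medians were 4.02 and 3.88 CPM (counts scaled to a common library size) in queens and 3.75 and 4.13 CPM in workers, so that the castes overlapped on that scale.

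**Figure D1:**
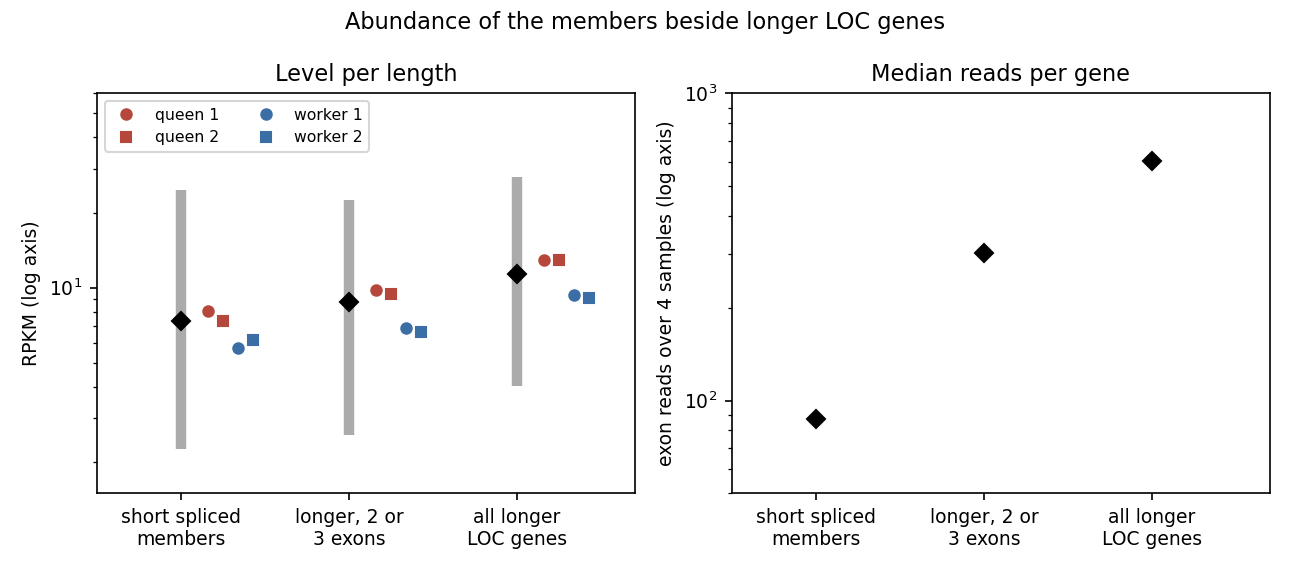
Level per length (left, RPKM on a log axis) and median exon reads per gene over the 4 samples (right, log axis) for the short spliced members, longer LOC genes of 2 or 3 exons and all longer LOC genes. Black diamonds are medians over genes, grey bars run between the quartiles, and coloured points are the median of each queen and worker sample. The members lie close to the longer genes in RPKM (7.36 against 8.77 and 11.3) and further from them in reads (87 against 303 and 602.5). The limit on length favours the distance in reads.

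A few genes held most of the reads of the members. LOC724386, with 3 exons and 584 bases and a protein-coding entry in the later annotation, was the most abundant member, and by exon reads it stood at place 7 among all genes. It lies on scaffold NW_003378048 of Amel_4.5, between 140945 and 143155 with the flanks of the exported span. The gene had 16671 and 14280 reads in queens and 46941 and 51020 reads in workers, which is 4609 and 4147 RPKM in queens and 12729 and 14089 RPKM in workers. Both worker samples were far above both queen samples, and its log2 change was -2.13 ± 0.12 (SE, adjusted p = 6.9e-04, quasi-likelihood test of edgeR, Benjamini-Hochberg adjustment over all tested genes). All of its reads matched a single place and 30.4% crossed a join of exons. This gene alone held 41.2% of the reads of the members, the first 2 genes held 58.0% and the first 10 held 73.2%.

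LOC100577577, a protein-coding gene of 2 exons and 627 bases, was the second most abundant member, with 3780 and 3331 RPKM in queens and 2887 and 3722 RPKM in workers. Its samples overlapped between the castes, and its log2 change of -0.41 ± 0.16 (SE) was not called (adjusted p = 0.13, edgeR). With library totals its sign turned to 0.13. LOC727546 followed with 389 and 790 RPKM in queens and 969 and 1077 RPKM in workers. All worker samples of this gene were above the queen samples, but the queen samples differed widely from each other, and the log2 change of -1.31 ± 0.34 (SE) missed the threshold (adjusted p = 0.052, edgeR). It was called with at least 10 reads required in every sample (adjusted p = 0.043, edgeR) and without queen sample 1 or 2 (adjusted p = 0.0024 and 2.3e-06, edgeR), and its adjusted p lay between 2.3e-06 and 0.22 over all the alternatives. Only 21.1% of its reads matched a single place, and the gene lies alone on a small scaffold.

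Of the other 7 members with the highest mean RPKM, 3 were called. LOC100577527, a protein-coding gene of 3 exons, had 813 and 513 reads in queens and 1552 and 1516 reads in workers, with a log2 change of -1.68 ± 0.20 (SE, adjusted p = 0.0062, edgeR). LOC725404, of 2 exons and 335 bases, had 201 and 151 reads in queens and 551 and 595 reads in workers, with a log2 change of -2.17 ± 0.15 (SE, adjusted p = 0.0014, edgeR). In both genes the worker samples were close to each other and above the queen samples, although for LOC725404 only 3.47% of the reads matched a single place and none crossed the join of its exons. LOC727239 was the called gene of this set that was higher in queens, with 1099 and 901 reads in queens and 507 and 489 reads in workers and a log2 change of 0.54 ± 0.12 (SE, adjusted p = 0.034, edgeR). LOC551541 had 384 and 334 RPKM in queens and 211 and 217 RPKM in workers. This separation without overlap on the RPKM scale became a log2 change of 0.23 ± 0.11 (SE) after TMM scaling, which was not called (adjusted p = 0.20, edgeR), whereas with library totals it was 0.77 and called (adjusted p = 0.0062, edgeR). LOC726980 and LOC100577586 had log2 changes of -0.12 and -0.07, which were smaller than their standard errors of 0.15 and 0.22 and were positive with library totals (0.43 and 0.47).

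**Figure D2:**
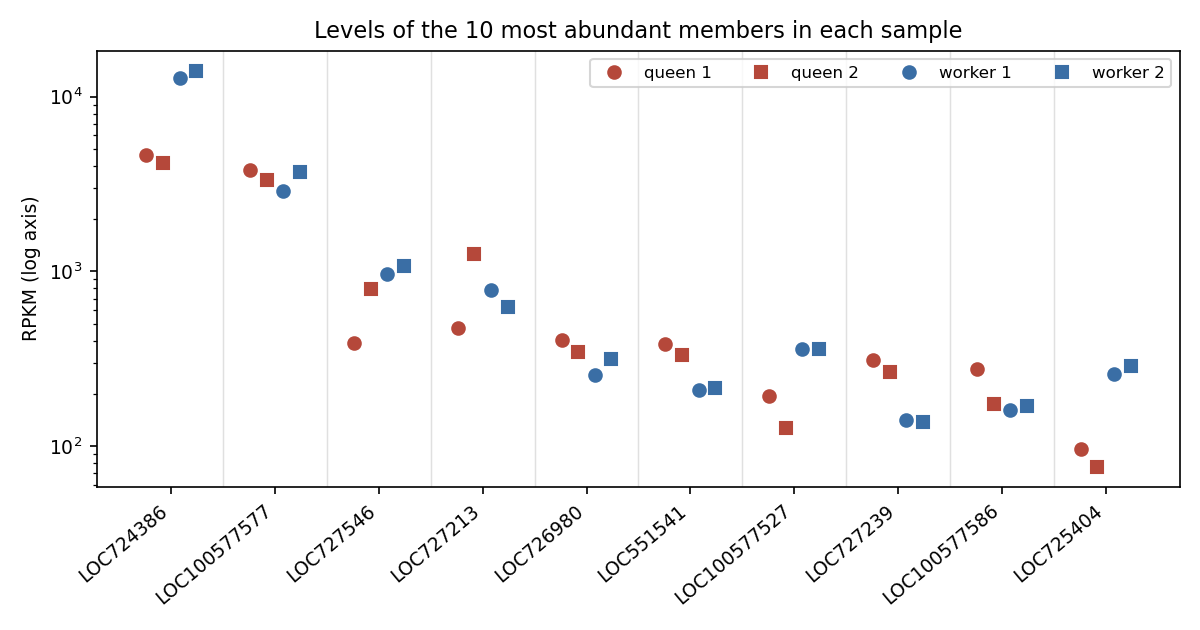
RPKM (log axis) of the 10 members with the highest mean RPKM in each sample, with queens in red on the left and workers in blue on the right of each gene. LOC724386 lies between 4147 and 4609 in queens and between 12729 and 14089 in workers, while LOC100577577 overlaps between the castes and LOC727546 and LOC727213 differ widely between the queen samples.

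The members together took 1.26% and 1.29% of all exon reads in queens, against 1.60% and 1.83% in workers. The difference of the means was -0.44 percentage points (two-sided exact permutation test over the 4 samples, p = 0.333, which is the smallest p that 2 against 2 samples can give). This difference came from LOC724386, which alone took 0.319% and 0.289% in queens and 0.857% and 0.973% in workers. Without it, in a computation chosen after the data were seen, the other 339 members took 0.944% and 0.998% in queens and 0.747% and 0.853% in workers, and the direction turned to 0.17 percentage points (exact permutation p = 0.333). On the TMM scale the same 339 members summed to 7775 and 8333 CPM in queens and 9019 and 10270 CPM in workers. The direction of the summed level therefore depended on the scaling and on a single gene. The longer genes of 2 or 3 exons took 6.77% and 6.85% of the exon reads in queens and 5.81% and 6.05% in workers.

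Between the castes 33 of the 233 tested members were called, 15 higher in queens and 18 higher in workers (edgeR's quasi-likelihood test, adjusted p below 0.05). Over all 7833 tested genes 18.3% were called, 6.32% higher in queens and 12.0% higher in workers, and the members' shares were 14.2%, 6.44% and 7.73%. The longer LOC genes of 2 or 3 exons had 132 of 804 called (16.4%), with 50 higher in queens and 82 higher in workers, and all longer LOC genes had 953 of 5263 called (18.1%), with 310 and 643. The share higher in queens was thus near the background in all these sets, and the share higher in workers was 7.73% in the members, 10.2% in the longer genes of 2 or 3 exons and 12.2% in all longer LOC genes. The median log2 change was 0.08 in the members, 0.05 in the longer genes of 2 or 3 exons, -0.002 in all longer LOC genes and 0.01 over all tested genes. A log2 change above 1 in size was seen in 42 of the tested members (18.0%), against 17.5% and 13.2% of the longer sets, and their median standard error was 0.31, against 0.23 and 0.18. The other 107 members, with at most 41 reads and at most 5.70 RPKM, did not pass the filter on low counts and were not tested, so that the counts hold for the better covered members only.

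These counts depended on the scaling and on the worker samples. The Wald test of DESeq2 changed them less, with 12 members called higher in queens and 14 higher in workers. With library totals 79 of 233 members were called higher in queens and 14 higher in workers. For all longer LOC genes these counts were 2397 and 328 of 5263. Library totals without the 10 most abundant genes gave 30 and 16 members, and 938 and 442 of all longer LOC genes. Limma on log2(RPKM + 1) gave 108 and 24 members, and 2225 and 325 of 5234 longer LOC genes. It differs in test, filter (325 members tested) and scaling together. Shares over all tested genes were not computed for these settings. Without worker sample 1 only 2 members were called higher in queens and 5 higher in workers, and without worker sample 2 only 2 and 4. The longer genes of 2 or 3 exons lost calls likewise, with 7 higher in queens and 33 higher in workers without worker sample 1 and 3 and 24 without worker sample 2. The members called in each of the 4 fits that left out a sample were LOC724386, LOC725404, LOC725973 and LOC100578900, higher in workers, and LOC411677 and LOC727526, higher in queens.

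The shares called are also given for genes of like depth. In the class from 10 to under 100 reads 10 of 78 tested members were called (12.8%), against 8 of 127 longer genes of 2 or 3 exons (6.30%) and 27 of 505 of all longer LOC genes (5.35%). In the class from 100 to under 1000 reads the shares were 13.2% of 121 members, 12.3% of 462 longer genes of 2 or 3 exons and 12.8% of 2709 longer LOC genes. From 1000 reads on they were 20.6% of 34 members, 31.2% of 215 and 28.2% of 2049. The members' share was above both longer sets in the lowest class, near them in the middle class and below them in the highest. In the highest class 7 members were called, and none of these differences was tested. In the lowest class only 78 of 185 members and 127 of 255 longer genes of 2 or 3 exons passed the filter on low counts. The filter needs enough reads in only as many samples as a caste has. A gene with few reads can thus be tested through the caste where it is high, and the shares called in the lowest class are not separate from the filter.

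**Figure D3:**
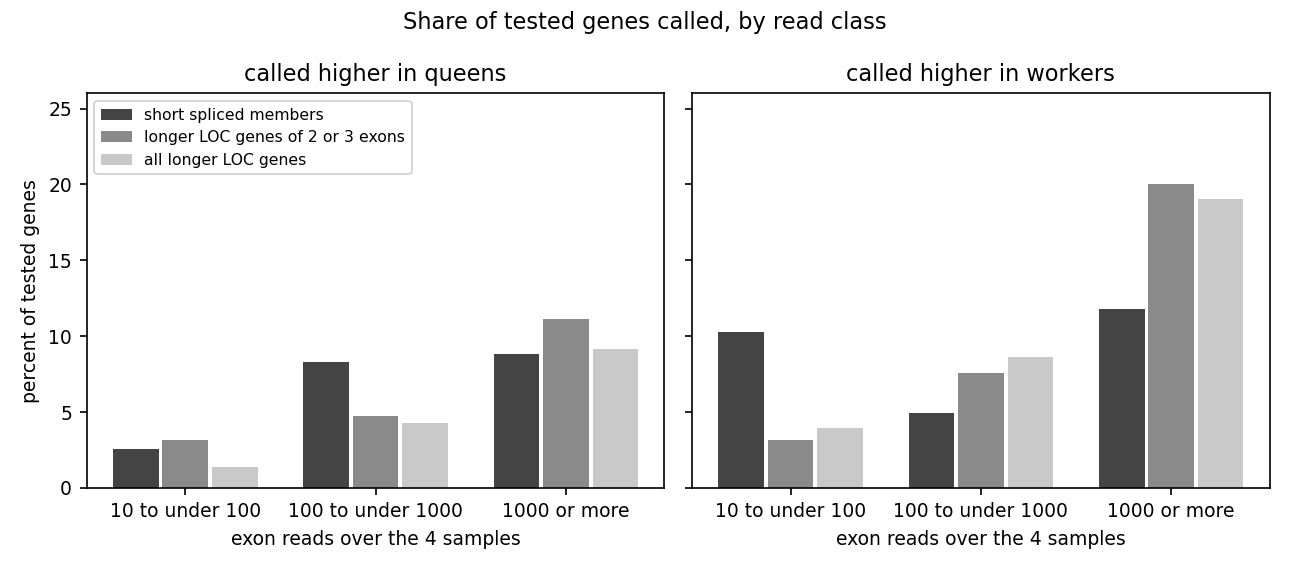
Percent of tested genes called higher in queens (left) and higher in workers (right) in 3 classes of exon reads summed over the 4 samples, for members (dark), longer LOC genes of 2 or 3 exons (grey) and all longer LOC genes (light). In the lowest class 10.3% of the members were called higher in workers against 3.15% and 3.96% of the longer sets. In this class a gene can pass the filter on low counts through the caste where it is high. From 1000 reads on the members' share of 11.8% lay below both longer sets.

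Among the members called higher in workers the named genes spanned a wide range of levels. LOC725973, a protein-coding gene of 3 exons, had 78 and 77 reads in queens and 207 and 307 reads in workers, with a log2 change of -2.20 ± 0.25 (SE, adjusted p = 0.0057, edgeR). Only 20.5% of its reads matched a single place, and they alone gave a log2 change of -2.76. LOC725449 had 10 and 3 reads in queens and 27 and 35 reads in workers, with a log2 change of -2.70 ± 0.54 (SE, adjusted p = 0.028, edgeR), and lies alone on its scaffold. The rule that named both genes required castes that did not overlap, and the standard error of LOC725449 was the larger by far. LOC100578878 had 12 and 17 reads in queens and 38 reads in each worker sample, and LOC100577984 had 14 and 13 reads in queens and 34 reads in each worker sample. Their log2 changes were -1.84 ± 0.34 (SE) and -1.79 ± 0.31 (SE), all of their reads matched a single place, and no read of either crossed a join of exons. Among the remaining members higher in workers, LOC725916 had 178 and 187 reads in queens and 307 and 311 in workers, and LOC100578900 had 242 and 225 reads in queens and 413 and 497 in workers; these were chosen after their values were seen, for their depth. LOC100578343, with a log2 change of -1.24 ± 0.27 (SE, adjusted p = 0.034, edgeR), was the called gene among the 12 long non-coding RNAs, of which 6 were tested, with 28 and 34 reads in queens and 58 and 49 reads in workers.

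Beside LOC727239, members were also named for the largest changes towards queens. LOC411677, a protein-coding gene of 3 exons and 514 bases, had 132 and 131 reads in queens and 19 and 26 reads in workers, with a log2 change of 2.08 ± 0.25 (SE, adjusted p = 0.0065, edgeR). As many as 76.9% of its reads crossed a join of exons, and it overlaps the abundant LOC408775, whose own log2 change was -0.32 and was not called. LOC727526 had 543 and 468 reads in queens and 123 and 97 reads in workers, with a log2 change of 1.74 ± 0.15 (SE, adjusted p = 0.0025, edgeR). The samples of each caste lay close together in both genes, but only 1.38% of the reads of LOC727526 matched a single place and the gene is alone on its scaffold. LOC724638, which with 195 bases is among the shortest members, had 313 and 225 reads in queens and 85 and 93 reads in workers. Its log2 change was 1.12 ± 0.19 (SE, adjusted p = 0.018, edgeR), all reads matched a single place and 64.9% crossed a join.

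LOC100577922 had 61 and 44 reads in queens and 11 and 4 reads in workers, with a log2 change of 2.33 ± 0.48 (SE). LOC100578881 had 68 and 63 reads in queens and 16 reads in each worker sample, with a log2 change of 1.56 ± 0.26 (SE). LOC100577342 had 86 and 68 reads in queens and 28 and 20 reads in workers, a log2 change of 1.21 ± 0.27 (SE) that DESeq2 did not call. The rule that named these members required castes that did not overlap. LOC100577550 had 174 and 215 reads in queens and 66 and 72 reads in workers, with a log2 change of 1.03 ± 0.21 (SE), and was another member alone on its scaffold. LOC100576945 had 91 and 145 reads in queens and 5 and 16 reads in workers, with a log2 change of 3.02 ± 0.54 (SE, adjusted p = 0.021, edgeR). It overlaps LOC552556, which was called higher in workers with a log2 change of -2.16, and with the 30.7% of its reads that matched a single place its log2 change of 1.87 was not called.

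**Figure D4:**
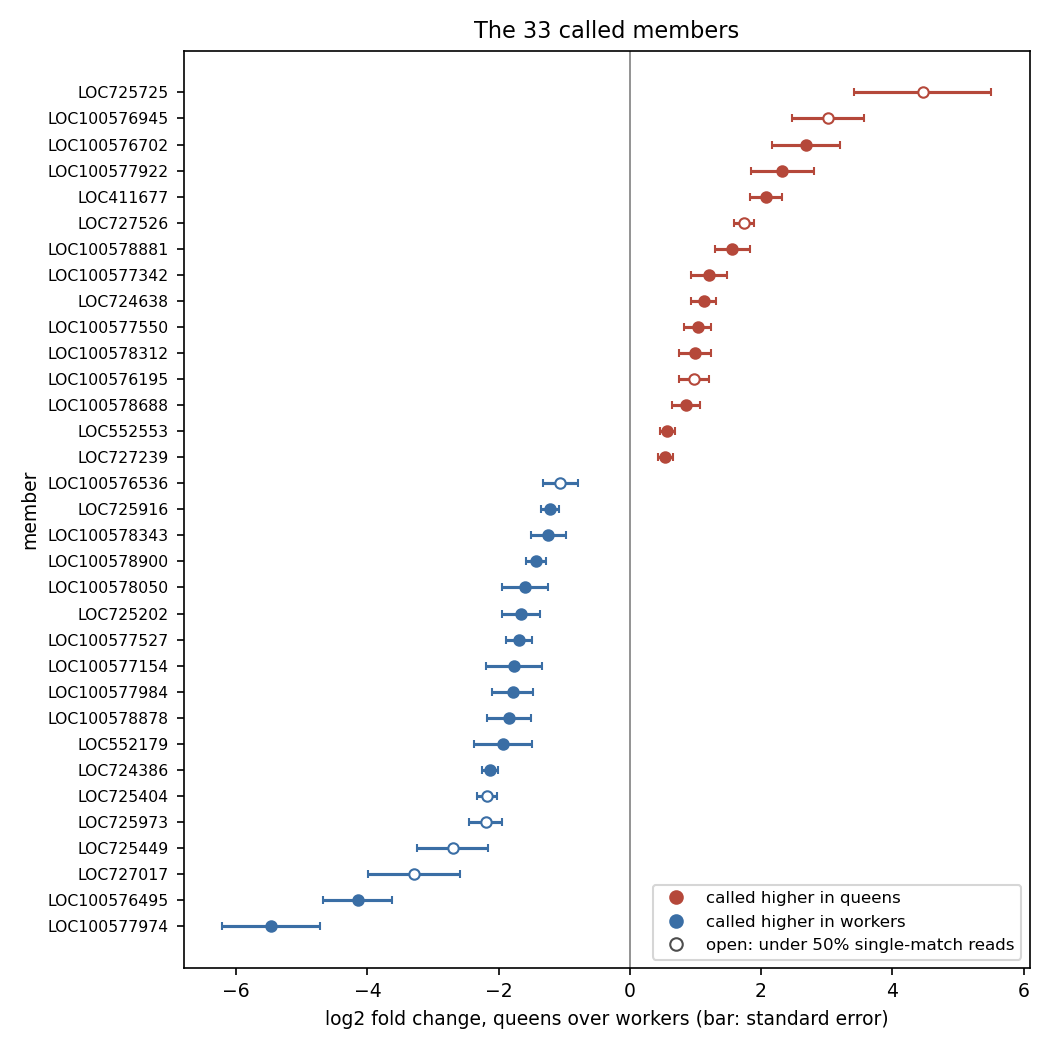
Log2 fold change, queens over workers, of the 33 called members with its standard error. Red points are called higher in queens and blue points higher in workers, and open points are the 9 members with under 50% of reads at a single place. The values run from -5.47 for LOC100577974 to 4.46 for LOC725725. The bars did not follow total reads alone, with 0.54 for LOC100576945 (257 reads) and 0.51 for LOC100576702 (41 reads).

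The largest fold changes belonged to members with almost no reads in a caste. LOC100577974 had 1 and 0 reads in queens and 19 and 22 reads in workers, a ratio of 56.6 with a 95% counting interval of 9.60 to 2289 (exact binomial, counting error only), and was called (adjusted p = 0.0093, edgeR). It overlaps LOC100578007, which had 0 and 1 reads in queens and 31 and 39 reads in workers and was itself called, so that their counts are not separate evidence. This member was named after its values were seen. LOC100576495 had 2 and 1 reads in queens and 21 reads in each worker sample, a ratio of 19.3 (6.17 to 97.5), and was called higher in workers (adjusted p = 0.0075, edgeR). LOC725725, whose best match in the study's annotation is a chitinase, an enzyme that breaks down the chitin of cuticle and peritrophic membrane, had 15 and 51 reads in queens and 1 read in each worker sample, a ratio of 23.9 (6.36 to 201). It was called higher in queens (adjusted p = 0.042, edgeR), with 13.2% of its reads at a single place and more reads in its introns than on its exons. LOC100577157 had 86 and 19 reads in queens and 3 and 0 reads in workers, a ratio of 25.4 (8.44 to 125), and missed the threshold (adjusted p = 0.055, edgeR). Its queen samples stood apart. DESeq2 called it (adjusted p = 0.0028), as did library totals (adjusted p = 0.018, edgeR), library totals without the 10 most abundant genes, both limma fits and the fit without queen sample 2 (adjusted p = 4.7e-05, edgeR), and over all the alternatives its adjusted p lay between 4.7e-05 and 0.23.

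A few other members carry a note of similarity to a fly protein, and these were not called. LOC724264, similar to the Drosophila gene CG6914, had 691 and 568 reads in queens and 351 and 405 reads in workers, with a log2 change of 0.27 ± 0.14 (SE). LOC724627, similar to Drosophila MtnC, a metallothionein that binds heavy metals, had 566 and 627 reads in queens and 594 and 751 reads in workers. Its log2 change of -0.64 ± 0.17 (SE) did not pass the threshold (adjusted p = 0.061, edgeR). LOC726619, similar to Drosophila Chrac-16, a histone-fold subunit of a chromatin remodelling complex, had 32 reads in each queen sample and 26 and 8 reads in workers, and the worker samples differed more from each other than the castes did. LOC724329, noted as similar to Drosophila l(2)tid, had 6 and 0 reads in queens and 2 and 5 reads in workers and was not tested.

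Some members differed more between samples of a caste than between the castes. LOC727213, another of the 10 members with the highest mean RPKM, had 1950 and 4931 reads in queens and 3283 and 2585 reads in workers, and its log2 change of -0.21 ± 0.44 (SE) was not called (adjusted p = 0.78, edgeR). Without queen sample 2 it was -1.09 and called (adjusted p = 7.6e-04, edgeR), and without queen sample 1 it was 0.34 and not called (adjusted p = 0.26, edgeR). Its neighbour LOC727218, whose exported span starts 1877 bases away on scaffold NW_003378081, had 121 and 927 reads in queens and 409 and 259 reads in workers. LOC727164, whose span starts 107641 bases from that of LOC727213 on the same scaffold, had 138 and 705 reads in queens and 491 and 245 in workers. In all 3 members queen sample 2 was highest and queen sample 1 lowest, with worker sample 1 above worker sample 2. LOC727218 and LOC727164 have the same 472 bases of exon and only 31.9% and 33.3% of reads at a single place, so that they may share reads. SPH19 is a serine protease homologue gene that is no member, and its exported span starts 9853 bases from that of LOC727213. It had 324 and 2034 reads in queens and 687 and 266 reads in workers, and all of its reads matched a single place. These genes were chosen after their values were seen. Among the 197 members with at least 60 reads, 16 differed at least 2-fold between the queen samples after scaling (8.12%) and 18 between the worker samples (9.14%), against 9.10% and 8.30% of 747 longer genes of 2 or 3 exons.

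**Figure D5:**
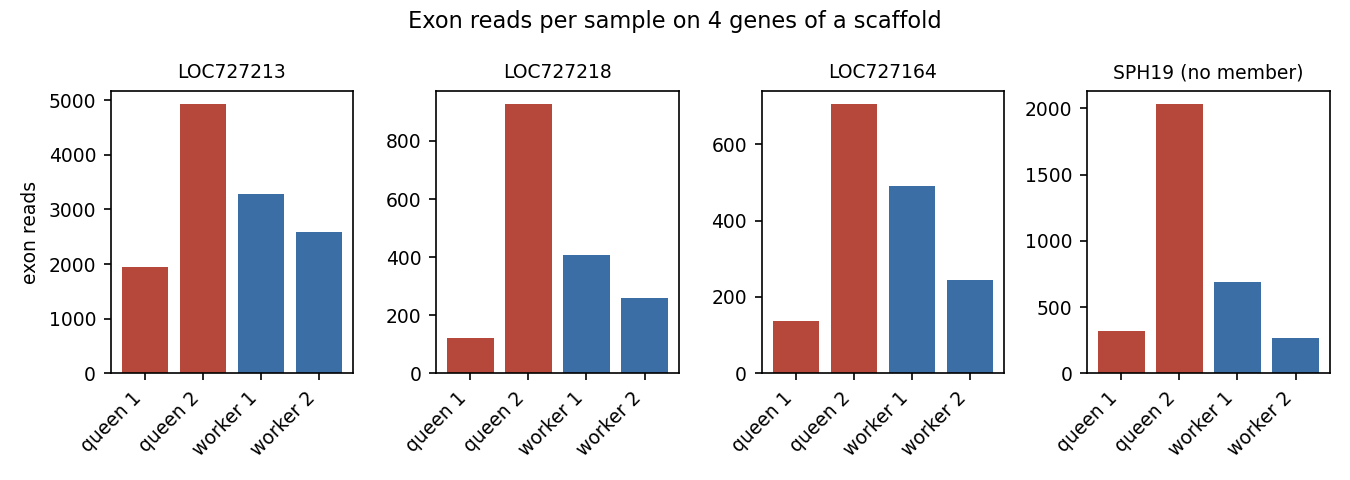
Exon reads in each sample for the members LOC727213, LOC727218 and LOC727164 and for SPH19, which is no member, each on its own linear axis from 0, with queens in red and workers in blue. Queen sample 2 is highest in all 4 genes and worker sample 1 lies above worker sample 2, as in LOC727218 with 121 and 927 reads in queens and 409 and 259 in workers.

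The called members were spread over exon numbers and lengths. Of the members with 2 exons 17 of 111 tested were called (15.3%), and of those with 3 exons 16 of 122 (13.1%). The members up to 350 bases had 4 of 23 called (17.4%), those over 350 to 500 bases 9 of 69 (13.0%) and those over 500 bases 20 of 141 (14.2%). In the later annotation 10 of the 126 tested members with an entry were called higher in queens and 7 higher in workers, and of the 107 tested members without an entry 5 were called higher in queens and 11 higher in workers. The longer genes of 2 or 3 exons had 42 and 54 called among 634 with an entry and 8 and 28 among 170 without one. In both sets the genes without an entry had the larger share higher in workers, 10.3% against 5.56% in the members and 16.5% against 8.52% in the longer genes, a difference that was not tested. Of the members without any read across a join 28 were tested, with 1 called higher in queens (3.57%) and 6 higher in workers (21.4%). Over all tested genes these shares were 6.32% and 12.0%. The 67 members of this group had a median of 28 reads, so that few passed the filter on low counts. The difference was not tested, and longer genes without such a read were not counted for comparison.

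Of the 33 called members 17 had an entry in the later annotation, 6 were alone on their scaffold and 9 had under 50% of their reads at a single place. With single-match reads alone 27 of them were tested and 26 were called in the same direction. Another gene lay within 5000 bases of 25 called members, and for 17 of these the nearest gene was tested. The nearest gene was called in the same direction for 3 members, in the other direction for 2 and not at all for 12. LOC724386 lies 537 bases from LOC724348, which had 43 and 35 reads in queens and 260 and 250 reads in workers, a log2 change of -3.17. LOC725202, with 82 and 51 reads in queens and 126 and 176 reads in workers, overlaps Amci, the gene of a chymotrypsin inhibitor, which had a log2 change of -3.06, and 81.4% of the reads of LOC725202 crossed a join. It was chosen after its values were seen.

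The genes on each side of the limit of 700 bases varied in level. Just inside it LOC725102, LOC100577007 and LOC726799, with 700, 700 and 698 bases, had mean levels of 29.3, 7.82 and 5.67 RPKM and log2 changes of -0.13, 0.46 and 0.62, none of them called. Just outside it LOC726428, LOC727234 and LOC727620, with 703, 701 and 702 bases, had 106, 22.2 and 1.05 RPKM. LOC726428 had a log2 change of 0.70 and was called (adjusted p = 0.023, edgeR), LOC727234 had -0.14 and was not called, and LOC727620 had 18 reads and was not tested.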

How the data were processed

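RNA of pooled whole larvae at 60 hours was sequenced on an Illumina HiSeq. Reads were mapped by the authors to Amel_4.5 with CLC Genomics Workbench (version not given in the sources used here), and the authors deposited read counts per gene on exons, on exons with introns and across joins of exons, with counts of reads matching a single place beside them. The RPKM is the authors' value, exon reads scaled by exon length and by the reads mapped to genes. Exon number, exon length and position are also as deposited. Exported spans reached 500 bases beyond the exon at each end in 137 of 190 single-exon genes. The other 53 each lay at the start of a scaffold or were the last gene on it. The flank was removed before overlaps were computed, so that overlaps and distances at scaffold ends are approximate. Columns with fold changes and p-values of the authors' own comparison, and a second deposited table of transcripts selected by it, were not used.

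The castes were compared on exon counts in R 4.3.3 with edgeR 4.0.16 (TMM factors, filterByExpr, quasi-likelihood test, Benjamini-Hochberg adjustment over 7833 genes, calls at 0.05, no block). The study itself used the Baggerly test. Standard errors follow from the F statistic of each gene and its fold change. Nothing tells the sampling of separate colonies, so that the p-values measure only the spread between these samples. The tests were tested on simulated data. DESeq2 1.42.0, limma 3.58.1 (pseudocounts 1 and 0.1, RPKM of at least 1 in 2 samples), other scalings and filters, single-match reads, a block, other limits of the rule and leaving out each sample were alternatives. Tables and plots used pandas 2.3.3, numpy 2.4.6, scipy 1.17.1 and matplotlib 3.10.9.

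The members and lists were chosen with earlier results of these data known. Named members are the 10 with the highest mean RPKM, the 8 called in each direction with the largest log2 fold change among those with no overlap and at least 20 reads in each sample of the higher caste, those with at least 50 reads in a caste and at most 3 in each sample of the other, and the 3 genes nearest to 700 bases on each side. Most others are marked as chosen after their values were seen. LOC100578343 and the members with a note of similarity to a fly protein were also named outside these rules. The lists by product could not be applied and protein features were not analysed, because the reference table used (Amel_HAv3.1) gives identifiers and gene types only. Ratios with 1 to 3 reads in a caste carry an exact 95% interval for counting error only.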

Additional observations from a re-analysis of the deposited data

How the results depend on the processing

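With 2 samples a caste the calls lean on a spread that edgeR pools over genes, and genes with few reads are limited by depth. The direction of every called member was the same under each alternative in which it was tested, and 15 of the 33 stayed called under every alternative that kept the 4 samples. In this count a member that an alternative left untested was taken as not called. With at least 10 reads in every sample 23 of the 33 were tested, and with single-match reads 27. The scaling, and leaving out a worker sample, moved the counts. Members called higher in queens numbered 15, against 79 with library totals, 30 with library totals without the 10 most abundant genes, and 102 and 108 with limma on log2(RPKM + 0.1) and log2(RPKM + 1). Longer genes of 2 or 3 exons higher in queens numbered 50, against 325, 138, 316 and 327 in the same order, and those higher in workers 82, against 45 with library totals and 49 with each limma fit. All longer LOC genes higher in queens numbered 310, against 2397, 938, 2184 and 2225, and those higher in workers 643, against 328, 318 and 325 with library totals and the limma fits. Other limits of the rule changed the counts with the number of genes: 6 and 7 members were higher in queens and in workers up to 500 bases, 29 and 35 up to 1000 bases, 8 and 9 with 2 exons and 7 and 9 with 3 exons.

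The median log2 fold change of the members, 0.08, was 0.62 with library totals, 0.33 without the 10 most abundant genes, 0.55 and 0.48 with limma (pseudocounts 0.1 and 1), 0.13 with upper-quartile scaling, 0.066 with DESeq2, 0.065 with at least 10 reads in every sample, 0.048 up to 500 bases and 0.053 up to 1000 bases. Leaving out a sample gave 2 to 13 members higher in queens, 4 to 20 higher in workers, a median of 0.023 to 0.13, 3 to 54 and 24 to 82 longer genes of 2 or 3 exons, and 28 to 274 and 169 to 585 of all longer LOC genes; the caste left with 1 sample is then assumed to vary like the other. The share of exon reads kept its direction when a sample was left out (-0.55 to -0.33 percentage points) and with single-match reads (-0.51). Without the 10 most abundant genes, LOC724386 among them, the difference was -0.01 with overlapping castes, and without LOC724386 alone it reversed (0.17).

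With the replicate number as a block 14 members were higher in queens and 16 in workers, with a median of 0.065, and LOC727546 and LOC100577157 were called (adjusted p = 0.020 and 0.012, edgeR). The numbers mark different larvae, and the deviations of queen sample 1 and worker sample 1 from their castes had a correlation of -0.04 across genes, so that the numbers were not taken to pair the samples. Uncalled genes changed sign with library totals, with limma (pseudocounts 0.1 and 1) and, where given, with library totals without the 10 most abundant genes: LOC100577577 (0.13, 0.11, 0.11), LOC100577586 (0.47, 0.41, 0.41, 0.18), LOC725102 (0.41, 0.38, 0.37, 0.12), LOC726980 (0.43, 0.41, 0.40, 0.13), LOC727213 (0.33, 0.14, 0.14, 0.030) and LOC727234 (0.40, 0.39, 0.37, 0.11). Over the fits that left out a sample the values lay between -0.41 and 0.22 for LOC100577586, -0.30 and 0.038 for LOC725102, -0.27 and 0.062 for LOC726980, -1.09 and 0.34 for LOC727213, and -0.36 and 0.13 for LOC727234.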

Other observations

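Other short spliced members were chosen after their values were seen, and of these LOC100576961 and LOC726252 differed widely between the queen samples. LOC100576961, a protein-coding gene in the later annotation whose reads all matched a single place, had 208 and 15 reads in queens and 5 and 2 reads in workers, and its log2 change of 4.46 ± 1.46 (SE) was not called (adjusted p = 0.095, edgeR). LOC726252, also protein-coding there, had 255 and 70 reads in queens and 136 and 210 reads in workers. LOC727017, the shortest member with 182 bases, had 4 and 3 reads in queens and 14 and 37 reads in workers and was called higher in workers (adjusted p = 0.033, edgeR), although none of its reads matched a single place. LOC724490, a long non-coding RNA, had 220 and 245 reads in queens and 242 and 252 reads in workers, the most of the 12 members of that type, and its log2 change of -0.55 was not called (adjusted p = 0.062, edgeR).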
